A study of Homo sapiens with 6 samples.

Results

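CD44 and the enzymes and binding proteins that make, hold and break down hyaluronan were followed as 9 genes, picked by symbol from the 58174 genes listed for each sample. They were the hyaluronan synthases HAS1, HAS2 and HAS3, the receptor CD44, the hyaluronidases HYAL1, HYAL2 and HYAL3, the hyaluronan-binding secreted protein TNFAIP6 (TSG-6) and the hyaluronan-depolymerising protein CEMIP. All 9 had a row in every sample. RNA-seq was performed on T24, a cell line from a human bladder carcinoma, and the question was how the loss of UBC9 changes its transcripts. UBC9 is the conjugating enzyme of SUMO modification. The 3 shRNA-NC samples carried a scrambled control shRNA and the 3 shRNA-UBC9 samples an shRNA against UBC9. Both groups were T24 cells infected with lentivirus and kept under puromycin as stable lines, no further treatment was named, and a single UBC9 shRNA, cloned in pLKO.1, was described, so an effect of its sequence cannot be told apart from the loss of UBC9. Nothing states that the 3 samples of a group came from separate cultures, so the p-values measure only the spread between these samples, which may be technical.

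Hyaluronan is a long unbranched sugar chain that the HAS enzymes build at the plasma membrane from UDP-glucuronic acid and UDP-N-acetylglucosamine and push out of the cell. CD44 is its main cell surface receptor and is widely used as a marker of stem-like tumour cells, also in the bladder. The chains are cut by hyaluronidases and by CEMIP, and TNFAIP6, with pentraxin 3 (PTX3) and the heavy chains of inter-alpha-inhibitor, cross-links them into a matrix that binds leukocytes at sites of inflammation.

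The values are RPKM, reads scaled to the length of the transcript and to all mapped reads of the library, so levels can be compared between genes. The steps between low RPKM values corresponded to 28220000 to 36060000 reads per sample, and 18059 to 19725 genes were above 0. The keratin transcripts of an epithelial cell were present in every sample, whereas CDH1 had at most 1 read and the uroplakins at most 15 reads, so the junction cadherin of epithelia and the defining proteins of the urothelial surface were at or near 0 in transcript. The transcription factors GATA3 and PPARG, also listed as urothelial, were expressed, at 3.96 to 9.36 RPKM and at 2.49 to 20.6 RPKM over the 6 samples. The mesenchymal cadherin CDH2 was at 45.3 to 47.6 RPKM in shRNA-NC and 39.0 to 44.9 RPKM in shRNA-UBC9. The 3 mesenchymal markers, which also include VIM and FN1, summed to 947 to 1256 RPKM in shRNA-NC and 617 to 1355 RPKM in shRNA-UBC9. These sums overlapped, and none of the 3 markers passed the test. The summed level of the 6 epithelial markers was 938 to 1108 RPKM in shRNA-NC and 426 to 563 RPKM in shRNA-UBC9, with KRT7, KRT8, KRT18 and KRT19 lower and EPCAM not past the test, and GATA3 and PPARG were also lower. The part of this marker shift in the results was not tested. The 6 leukocyte markers summed to 0.675 to 1.42 RPKM in shRNA-NC and 0.758 to 1.76 RPKM in shRNA-UBC9. PTPRC, CD3E and LYZ were at 0 in shRNA-NC replicate 1 and shRNA-UBC9 replicate 3 and had reads in the other 4 samples. The 4 fibroblast markers summed to at most 0.0987 RPKM. Of the 3 endothelial markers, PECAM1 and VWF were near 0 and CDH5 was lower in shRNA-UBC9.

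Of the 9 genes, 5 passed the filter of at least 0.5 RPKM in at least 3 samples (CD44, HAS2, HAS3, HYAL2 and HYAL3) and 4 did not (HAS1, HYAL1, TNFAIP6 and CEMIP). The groups were compared with limma after a log2(RPKM + 0.1) transform, and adjustment ran over all 12428 genes that passed. HAS2, CD44 and HYAL3 were higher in shRNA-UBC9 with an adjusted p below 0.05, a call that 18.8% of all tested genes received in this direction. None of the 5 was lower, against 18.0% of all tested genes. HAS2 was the only member past the DEG cutoff, which also asks for a log2 fold change above 1 and was met upward by 5.20% and downward by 2.70% of all tested genes. HAS3 and HYAL2 did not pass the test.

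**Figure D1:**
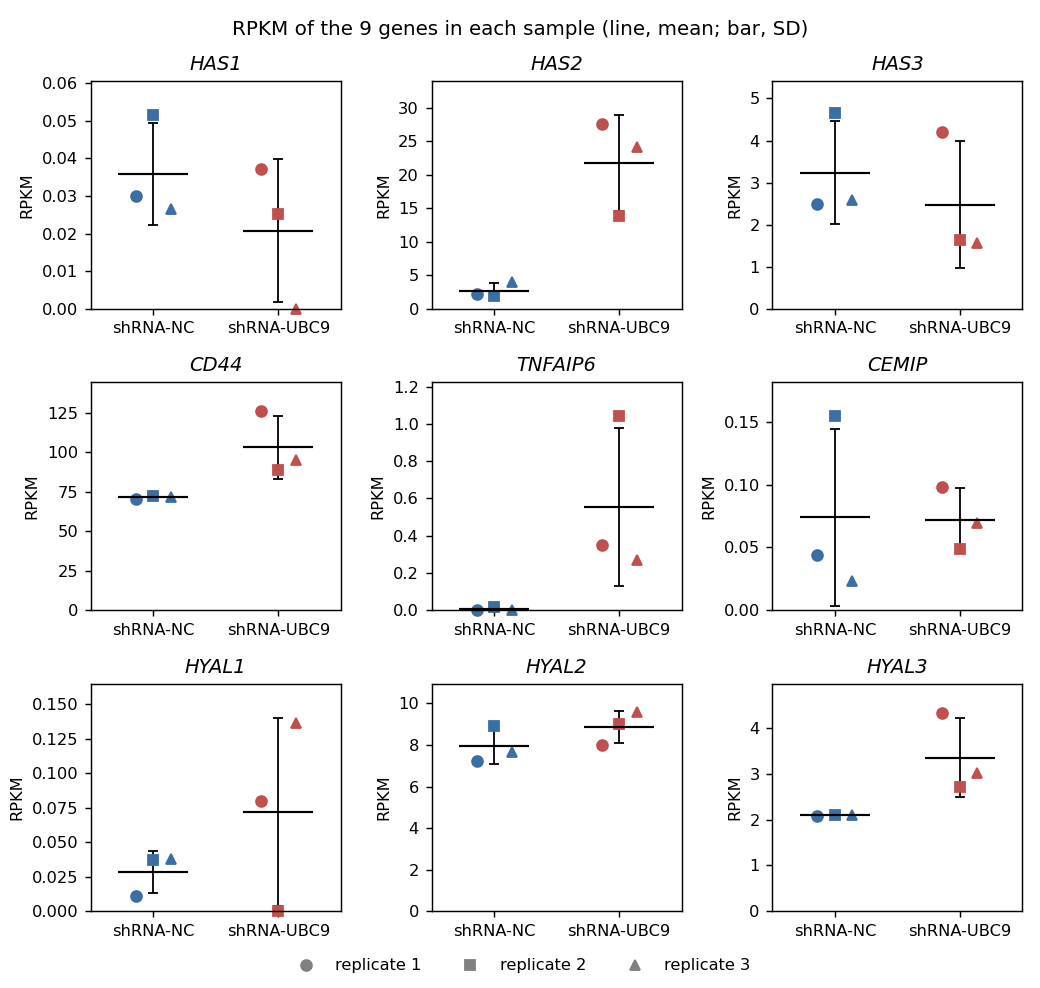
RPKM (vertical axis, a scale of its own for each gene, from 0) of the 9 genes in the 3 shRNA-NC samples (blue) and the 3 shRNA-UBC9 samples (red), with the replicate number as the symbol, the mean as a line and the SD as a bar. HAS2, CD44, HYAL3 and TNFAIP6 lie higher in every shRNA-UBC9 sample than in any shRNA-NC sample, and the groups overlap for the other 5 genes.

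HAS2, the synthase that makes most of the hyaluronan in many tissues, showed the largest change of the tested members. It was listed at 2.20, 1.97 and 3.95 RPKM in shRNA-NC and at 27.6, 13.8 and 24.1 RPKM in shRNA-UBC9. The lowest knockdown sample was thus well above the highest control sample. The mean rose from 2.71 ± 1.08 to 21.9 ± 7.19 RPKM (SD, n = 3 in each group), a ratio of 8.08 (log2 fold change 2.97, SE 0.31, limma adjusted p = 0.000341). By fold change it ranked 100 from the top of all tested genes. The reads behind these values numbered 275 to 560 in shRNA-NC and 2037 to 4174 in shRNA-UBC9. In a bulk sample, a larger share of cells with the transcript and more transcript per cell cannot be told apart, for this gene as for the others.

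The antisense transcript HAS2-AS1 overlaps 251 exon bases of HAS2 on the other strand, and nothing states that strand was used in counting, so reads of the overlap could belong to either gene. HAS2-AS1 was listed at 0.131, 0.305 and 0.477 RPKM in shRNA-NC and at 2.64, 1.5 and 1.82 RPKM in shRNA-UBC9. The groups did not overlap, but HAS2-AS1 passed the filter only through the shRNA-UBC9 samples, so no test of it is given. HAS2 lies on the minus strand at chr8:121612116-121641440 of GRCh38.

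HAS3, the synthase known for shorter chains, was listed at 2.48, 4.65 and 2.58 RPKM in shRNA-NC and at 4.21, 1.63 and 1.57 RPKM in shRNA-UBC9. The groups overlapped, since shRNA-UBC9 replicate 1 lay among the controls while the other two knockdown samples lay below all of them. The log2 fold change was -0.47 (SE 0.38, limma adjusted p = 0.367). Without shRNA-UBC9 replicate 1 it was -0.91, with a limma adjusted p of 0.0268, so this single sample decided the call. HAS3 shares 365 exon bases with CHTF8 and DERPC on the other strand, and reads there could belong to those genes instead. HAS1, the least active synthase, had 2, 4 and 2 reads in shRNA-NC and 3, 2 and 0 reads in shRNA-UBC9, at most 0.0515 RPKM. The 0 allows a level of up to 0.0475 RPKM at that depth, which covers counting error only, and no difference in HAS1 was detectable (exact permutation p = 0.4, two-sided).

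The make-up of the synthase transcripts differed between the groups. HAS2 made up 46.7%, 29.5% and 60.2% of the summed RPKM of the 3 synthases in shRNA-NC and 86.7%, 89.3% and 93.9% in shRNA-UBC9. The sum itself went from 4.71, 6.67 and 6.56 RPKM to 31.9, 15.5 and 25.7 RPKM. In the control samples HAS2 and HAS3 were at like levels, with HAS2 over HAS3 at 0.886, 0.424 and 1.53. In the knockdown samples that ratio was 6.57, 8.46 and 15.3. Reads from the exon overlaps of HAS2 and HAS3 named above could be part of these values.

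**Figure D2:**
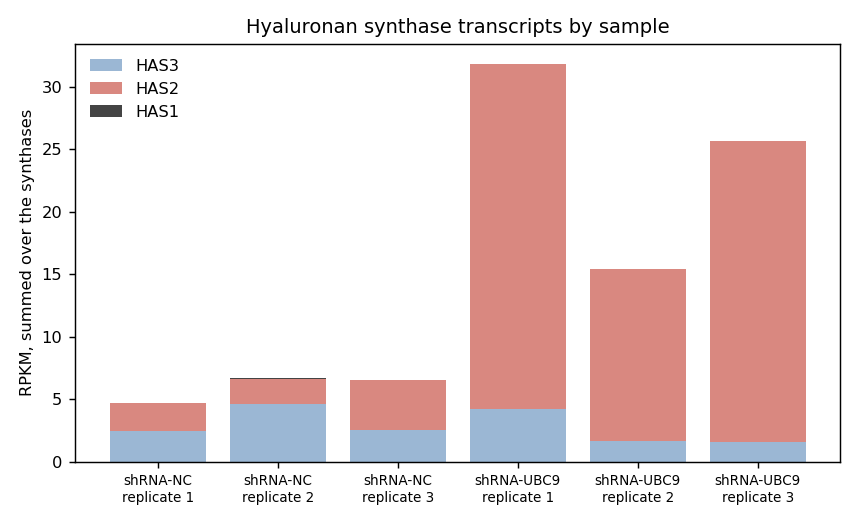
Summed RPKM of HAS1, HAS2 and HAS3 (vertical axis) in each of the 6 samples, stacked by gene. The HAS2 segment grows from 1.97 to 3.95 RPKM in shRNA-NC to 13.8 to 27.6 RPKM in shRNA-UBC9, while the HAS3 segment stays between 1.57 and 4.65 RPKM in all 6 samples and HAS1 is hardly visible.

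CD44 was by far the most abundant member, above 97.0% of all tested genes by its mean RPKM. It was listed at 70.1, 72.5 and 71.3 RPKM in shRNA-NC and at 126, 88.4 and 95.0 RPKM in shRNA-UBC9. The controls lay close together, and the knockdown samples lay above them but apart from one another, with replicate 1 highest. The ratio of the means was 1.45 (limma adjusted p = 0.016), which ranked 1642 from the top by fold change. The call was lost without shRNA-NC replicate 1 (limma adjusted p = 0.0528) and without shRNA-NC replicate 3 (limma adjusted p = 0.0522), while the log2 fold change lay between 0.36 and 0.62 with any sample left out. CD44 lies on the plus strand at chr11:35138882-35232402 of GRCh38. RPKM per gene does not separate the standard from the variant isoforms of CD44, so no isoform was measured here.

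The genes whose profile over the 6 samples was nearest to that of CD44, by the root mean square difference of log2(RPKM + 0.1) after each gene was centred on its mean, were COL7A1 (0.044), STXBP5 (0.050), HECA (0.056), STC2 (0.061) and PCNX2 (0.062). COL7A1, the collagen of anchoring fibrils, was at 18.4 to 19.3 RPKM in shRNA-NC and at 33.4, 23.2 and 23.3 RPKM in shRNA-UBC9. STC2, a secreted glycoprotein, was at 41.2 to 43.0 RPKM and then at 79.3, 55.9 and 55.0 RPKM. As follows from how they were chosen, all 5 shared with CD44 a narrow control group and a highest value in shRNA-UBC9 replicate 1. The 6 points share their libraries, and the likeness is a description.

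The hyaluronidases were expressed at moderate to very low levels. HYAL2, a GPI-anchored enzyme that cuts long chains at the cell surface, led them, with 7.25, 8.93 and 7.66 RPKM in shRNA-NC and 8.01, 9.02 and 9.56 RPKM in shRNA-UBC9. The groups overlapped (log2 fold change 0.16, SE 0.11, limma adjusted p = 0.299). HYAL2 shares 509 exon bases with TUSC2 in the annotation used here, and reads there could belong to either gene.

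HYAL3, a weakly active relative of HYAL1 and HYAL2, was listed at 2.08, 2.09 and 2.10 RPKM in shRNA-NC and at 4.32, 2.71 and 3.02 RPKM in shRNA-UBC9. All knockdown samples lay above the nearly equal controls, and replicate 1 was again the highest. The mean rose from 2.09 ± 0.0086 to 3.35 ± 0.852 RPKM (SD, n = 3 in each group), a ratio of 1.60 (log2 fold change 0.63, SE 0.17, limma adjusted p = 0.0191). The call was lost without shRNA-NC replicate 1 (limma adjusted p = 0.0559), without shRNA-NC replicate 3 (limma adjusted p = 0.0578) and with no filter on low values (limma adjusted p = 0.0535). HYAL3 shares 232 exon bases with NAA80, which did not pass the test (log2 fold change -0.18, SE 0.17, limma adjusted p = 0.442). HYAL3 also shares 43 exon bases with IFRD2, and reads of the shared bases could belong to any of these genes. The reads of HYAL3 numbered 126 to 316 per sample.

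HYAL1, the hyaluronidase of lysosomes and plasma, had 1, 4 and 4 reads in shRNA-NC and 9, 0 and 12 reads in shRNA-UBC9. The knockdown samples held both the lowest and the highest values, so no difference was detectable at this depth (exact permutation p = 0.4, two-sided). The total of reads per unit of depth was 2.31 times that of the controls, with a 95% exact interval of 1.01 to 5.72 that covers counting error only and not the spread between samples. CEMIP, which binds hyaluronan and is needed for its breakdown in skin fibroblasts, had 10, 41 and 6 reads in shRNA-NC and 27, 13 and 15 reads in shRNA-UBC9. CEMIP shares 224 exon bases with MESD on the other strand, and some of these reads could belong to MESD. The groups overlapped (exact permutation p = 1.0, two-sided), and the ratio per unit of depth was 0.953 with a 95% exact counting interval of 0.646 to 1.41.

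TNFAIP6 was nearly absent from the control samples and low in the knockdown samples. It had 0, 1 and 0 reads in shRNA-NC and 20, 58 and 12 reads in shRNA-UBC9, or 0, 0.0183 and 0 RPKM against 0.351, 1.04 and 0.269 RPKM. Every knockdown sample was above every control sample. The ratio per unit of depth was 88.9 with a 95% exact interval of 15.6 to 3551, wide because a single read stands on the control side, and it covers counting error only. The values of 0 allow up to 0.0636 RPKM in shRNA-NC replicate 1 and 0.0561 RPKM in replicate 3. The exact permutation test gave p = 0.1 (two-sided), the smallest that 3 samples against 3 can give. TNFAIP6 was the only one of the 4 members under the filter whose groups did not overlap, where 9.66% of the 10468 genes under the filter and above 0 in any sample lay higher in every shRNA-UBC9 sample. The leukocyte marker sums, given above, overlapped between the groups, and a link between them and TNFAIP6 was not tested.

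TNFAIP6 and PTX3, described below, encode secreted proteins that act in the same hyaluronan matrix, and GFPT2 encodes an enzyme of its sugar supply. All 3 were higher in shRNA-UBC9, and the 250 bases before their start sites hold no annotated exon. These bases are shown for the motifs they hold, from RefSeq on GRCh38.p14, with matches to the AP-1 motif (TGAGTCA or TGACTCA), the C/EBP motif (TTGCNNAA or TTACNNAA) and the NF-kB motif in capitals, searched on both strands. They come from chr2:151357342-151357591 (plus strand) for TNFAIP6, chr3:157436600-157436849 (plus strand) for PTX3 and chr5:180353337-180353586 (minus strand) for GFPT2, each 5′ to 3′.
TNFAIP6: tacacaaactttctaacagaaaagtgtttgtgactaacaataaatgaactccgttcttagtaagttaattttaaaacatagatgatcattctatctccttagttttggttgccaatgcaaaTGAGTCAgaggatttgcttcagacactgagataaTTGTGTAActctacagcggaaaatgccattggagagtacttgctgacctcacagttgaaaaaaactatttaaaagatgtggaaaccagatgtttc
PTX3: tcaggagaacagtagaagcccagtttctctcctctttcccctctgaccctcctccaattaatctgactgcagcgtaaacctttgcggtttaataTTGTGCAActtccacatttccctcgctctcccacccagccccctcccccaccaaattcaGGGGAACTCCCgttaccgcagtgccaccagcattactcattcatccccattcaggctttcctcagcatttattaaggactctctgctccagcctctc
GFPT2: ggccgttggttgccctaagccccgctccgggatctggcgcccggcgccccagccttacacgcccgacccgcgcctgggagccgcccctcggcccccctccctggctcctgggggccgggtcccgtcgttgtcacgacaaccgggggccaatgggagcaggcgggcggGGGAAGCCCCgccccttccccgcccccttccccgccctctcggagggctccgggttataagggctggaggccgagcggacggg

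The TNFAIP6 window held an AP-1 match 129 to 123 bases before the start and a C/EBP match on the other strand 95 to 88 bases before it. The PTX3 window held overlapping NF-kB matches on both strands, 97 to 87 bases before the start, and a C/EBP match 156 to 149 bases before it. The GFPT2 window held an NF-kB match 83 to 74 bases before the start. Of 35116 promoter windows of the same length, 4.20% held AP-1, 5.21% NF-kB and 15.3% C/EBP. Among the 8 members whose RefSeq windows were searched, AP-1 was found in TNFAIP6, NF-kB in the second of the HYAL3 windows, and C/EBP in TNFAIP6 and CEMIP. For the named genes, entries on chromosome 8, where HAS2 lies, were left out, so HAS2 was not searched. None of the 3 motifs was found in the windows of GFPT1, which was also higher, or of UGDH and CEMIP2, which were lower. A match is a description of letters and not a bound site.

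By mean RPKM, the order in shRNA-NC was CD44, HYAL2, HAS3, HAS2, HYAL3, CEMIP, HAS1, HYAL1 and TNFAIP6. HAS3 and HAS2 overlapped, HAS2 and HYAL3 overlapped, and CEMIP, HAS1 and HYAL1 each overlapped with the next in order. In shRNA-UBC9 the order was CD44, HAS2, HYAL2, HYAL3, HAS3, TNFAIP6, CEMIP, HYAL1 and HAS1. HAS2 had moved above HYAL2 and TNFAIP6 above CEMIP, both without overlap. HYAL3 overlapped with HAS3, CEMIP with HYAL1, and HYAL1 with HAS1.

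**Figure D3:**
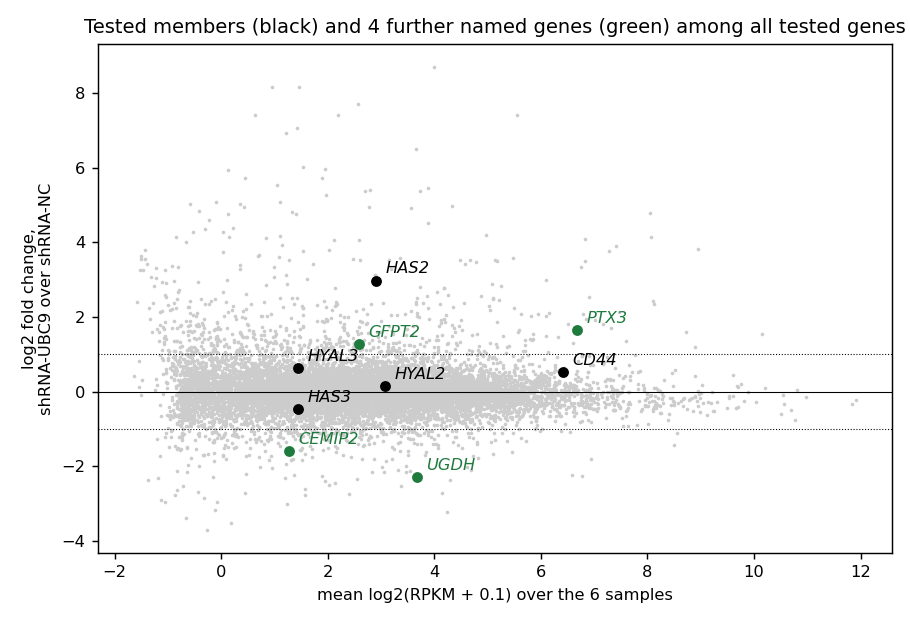
Log2 fold change of shRNA-UBC9 over shRNA-NC (vertical axis) against the mean log2(RPKM + 0.1) over the 6 samples (horizontal axis) for all 12428 tested genes (grey), with the 5 tested members in black and 4 further genes in green. HAS2 lies far above the bulk of the genes at 2.97, CD44 lies among the most abundant genes at 0.51, and UGDH lies near the lower edge at -2.29. Dotted lines mark a log2 fold change of 1 and -1.

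Beyond the members, 79 genes of hyaluronan and CD44 biology were listed in 6 groups, of which 54 passed the filter. Of these, 12 were higher and 14 lower in shRNA-UBC9 with an adjusted p below 0.05, and 28 did not pass the test. The DEG cutoff was met by 5 upward (GFPT2, TLR2, PTX3, CD74 and MMP14) and by 2 downward (UGDH and CEMIP2). The median log2 fold change of the 54 was 0.03, beside 0.005 for all tested genes. These counts, and those of the single lists below, stand beside the 18.8% and 18.0% of all tested genes given above.

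Of the enzymes that supply the sugar nucleotides, UGDH fell and 6 others rose. UGDH, which makes UDP-glucuronic acid, was listed at 27.1, 27.4 and 29.8 RPKM in shRNA-NC and at 4.79, 6.31 and 5.98 RPKM in shRNA-UBC9. The groups lay far apart, and the mean was 79.7% lower (log2 fold change -2.29, SE 0.12, limma adjusted p = 1.41e-05), and UGDH ranked 23 of all tested genes by its p-value. In shRNA-NC the UGDH level was 12.3, 13.9 and 7.54 times that of HAS2, and in shRNA-UBC9 it was 0.173, 0.457 and 0.248 times that level. On the hexosamine side, GFPT1 and GFPT2, which carry out the first committed step toward UDP-N-acetylglucosamine, both rose. GFPT2 went from 3.94, 3.85 and 3.59 RPKM to 11.7, 7.70 and 8.82 RPKM (log2 fold change 1.27, SE 0.15, limma adjusted p = 0.000563), and GFPT1 had a log2 fold change of 0.93 (SE 0.13, limma adjusted p = 0.00142). PGM3, a later enzyme of the same route, and the hexokinases HK1 and HK2 and phosphoglucomutase PGM1 rose as well, with log2 fold changes of 0.32, 0.36, 0.96 and 0.62 (limma adjusted p = 0.0248, 0.025, 0.0274 and 0.00661). Some of these calls were lost with 1 sample left out, while the direction stayed the same. That of PGM3 was lost without shRNA-NC replicate 1 or 3 or shRNA-UBC9 replicate 1 or 2 (limma adjusted p up to 0.0847). Its log2 fold change lay between 0.27 and 0.35 with any sample left out. That of HK1 was lost without shRNA-NC replicate 2 or 3 or shRNA-UBC9 replicate 3 (limma adjusted p up to 0.0728), and that of HK2 without shRNA-NC replicate 1 or 3 (up to 0.0885). The call of HK1 was also lost under median scaling (limma adjusted p = 0.0509) and that of HK2 with no filter on low values (limma adjusted p = 0.0747). In all, 6 of the 14 listed genes rose, UGDH alone fell, and 7 did not pass the test, among them UGP2, UAP1 and GNPNAT1. The median log2 fold change of the list was 0.27. Calls upward were made for 18.8% of all tested genes and calls downward for 18.0%.

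Among the other genes of hyaluronan breakdown, CEMIP2, the membrane-bound relative of CEMIP listed under its older name TMEM2, fell from 3.78, 4.41 and 4.14 RPKM to 1.11, 1.18 and 1.64 RPKM. The groups did not overlap (log2 fold change -1.60, SE 0.15, limma adjusted p = 0.000256). CEMIP2 was more abundant than CEMIP in all 6 samples, by a factor of 11.3 to 178. GUSB and HEXA did not pass the test, HYAL4 had a single read in 1 sample and SPAM1 was at 0 in all 6 samples.

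Of the other hyaluronan receptors, 4 of 7 passed the filter, 1 rose and 1 fell. TLR2, an innate immune receptor that senses hyaluronan fragments, rose from 0.830, 1.60 and 0.584 RPKM to 6.64, 5.82 and 2.89 RPKM. The groups were separate despite their spread (log2 fold change 2.26, SE 0.38, limma adjusted p = 0.00292). HMMR (RHAMM), which is also a spindle protein of dividing cells, fell from 27.7, 36.9 and 30.9 RPKM to 19.7, 19.4 and 21.7 RPKM (log2 fold change -0.64, SE 0.12, limma adjusted p = 0.00394). LAYN and TLR4 did not pass the test, and LYVE1, a receptor of lymphatic endothelium, was at 0 in all 6 samples.

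In the list of hyaluronan-binding matrix, 15 of 20 genes were under the filter, 4 of them at 0 in all samples, and ITIH2, which encodes a heavy chain that TNFAIP6 transfers to hyaluronan, was among those at 0. PTX3 was one of the most abundant genes of the whole set, at 67.0, 60.7 and 47.4 RPKM in shRNA-NC and at 110, 263 and 209 RPKM in shRNA-UBC9. Each knockdown sample exceeded each control sample (log2 fold change 1.65, SE 0.29, limma adjusted p = 0.00348). HABP4, an intracellular protein named for its binding to hyaluronan, fell (log2 fold change -0.85, SE 0.11, limma adjusted p = 0.000728). VCAN, the hyaluronan-binding proteoglycan versican, was at 1.04, 0.989 and 2.34 RPKM against 2.44, 0.706 and 0.827 RPKM. These groups overlapped (log2 fold change -0.23, SE 0.46, limma adjusted p = 0.733).

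**Figure D4:**
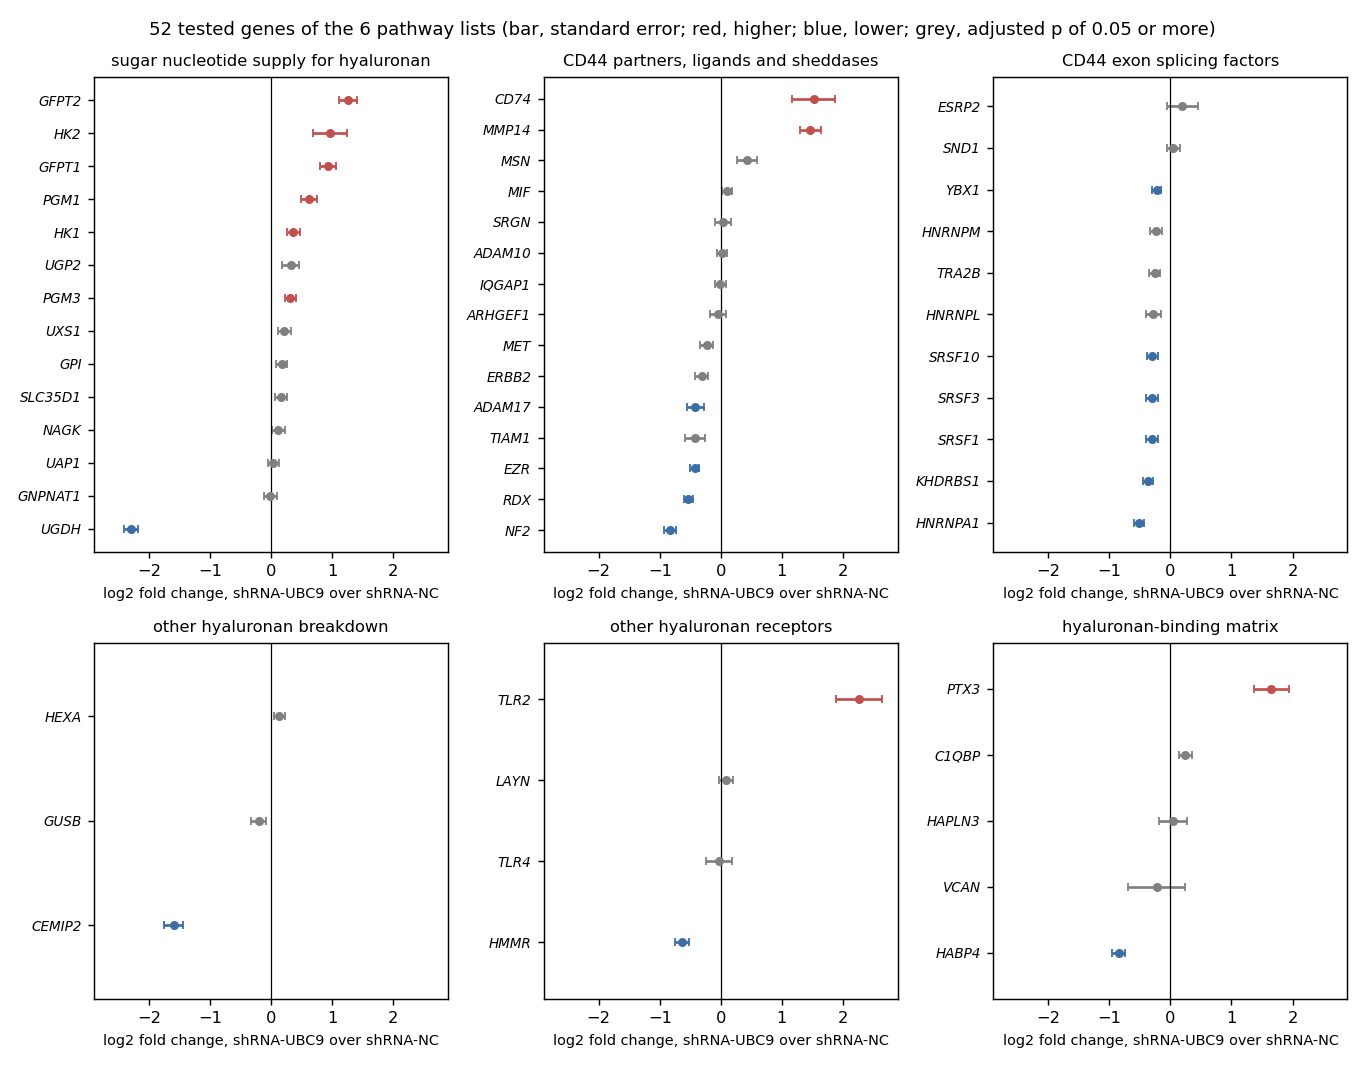
Log2 fold change of shRNA-UBC9 over shRNA-NC (horizontal axis, with the standard error as a bar) for 52 of the 54 tested genes of the 6 lists, 1 panel per list. Red marks genes higher and blue genes lower with a limma adjusted p below 0.05, and grey marks the others. UGDH at -2.29 stands opposite GFPT2 at 1.27, and the coloured splicing factors all lie below 0, between -0.52 and -0.23.

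Among the 20 partners, ligands and sheddases of CD44, 16 passed the filter, 3 rose and 4 fell. The shares over all tested genes were 18.8% higher and 18.0% lower. Of the ERM proteins, which tie the tail of CD44 to actin, EZR fell from 148, 140 and 141 RPKM to 102, 107 and 110 RPKM (log2 fold change -0.43, SE 0.08, limma adjusted p = 0.00366) and RDX fell by a like amount (log2 fold change -0.53, SE 0.08, limma adjusted p = 0.00152). NF2, which encodes the ERM relative merlin, fell as well (log2 fold change -0.83, SE 0.10, limma adjusted p = 0.000563). MSN was listed at 193, 127 and 180 RPKM in shRNA-NC and at 203, 213 and 249 RPKM in shRNA-UBC9, higher in every knockdown sample but not past the test (log2 fold change 0.43, SE 0.16, limma adjusted p = 0.0671).

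MMP14, a membrane-anchored metalloproteinase that cleaves CD44, rose from 55.1, 37.6 and 52.9 RPKM to 130, 112 and 159 RPKM. The groups were well apart (log2 fold change 1.47, SE 0.17, limma adjusted p = 0.000597). ADAM17, another sheddase, fell by a log2 fold change of 0.42 (limma adjusted p = 0.0423), a call lost without shRNA-NC replicate 2 or 3 or without shRNA-UBC9 replicate 2 or 3 (limma adjusted p from 0.104 to 0.123), with no filter (0.0864) and with no intensity trend (0.0592). ADAM10 was at 8.38 to 9.50 RPKM in shRNA-NC and 8.85 to 9.45 RPKM in shRNA-UBC9, with a limma adjusted p of 0.877. CD74, the MIF receptor that signals with CD44, rose from 2.22, 5.78 and 2.07 RPKM to 9.45, 10.1 and 7.07 RPKM (log2 fold change 1.52, SE 0.35, limma adjusted p = 0.011), while MIF itself did not pass the test. SPP1, which encodes the CD44 ligand osteopontin, had 3 to 6 reads in each sample.

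Of the 12 factors known to act on the variable exons of CD44, 11 passed the filter. Of these, 6 fell, none rose and 5 did not pass the test, with a median log2 fold change of -0.28. The share of all tested genes called lower was 18.0%, and the share called higher 18.8%. HNRNPA1 fell most, by a log2 fold change of 0.52 (SE 0.09, limma adjusted p = 0.00261), and KHDRBS1 (Sam68), which promotes inclusion of variable exons, was at 77.4 to 77.6 RPKM in shRNA-NC and at 54.4, 61.4 and 64.7 RPKM in shRNA-UBC9 (log2 fold change -0.37, SE 0.09, limma adjusted p = 0.0127). SRSF1, SRSF3, SRSF10 and YBX1 fell by a log2 fold change of 0.31, 0.30, 0.30 and 0.23 (limma adjusted p = 0.0373, 0.0396, 0.0297 and 0.045). These 4 calls lay close to the threshold. Those of SRSF1 and YBX1 were lost without any 1 of the 6 samples (limma adjusted p up to 0.0952 and 0.12), that of SRSF3 without any 1 but shRNA-UBC9 replicate 3 (up to 0.107) and that of SRSF10 without any 1 but shRNA-NC replicate 1 (up to 0.0835). With no filter or with no intensity trend, the calls of SRSF1, SRSF3 and YBX1 were lost as well (limma adjusted p from 0.0582 to 0.244). ESRP1, the epithelial regulator of CD44 variant exons, had 1, 5 and 0 reads in shRNA-NC and 19, 3 and 2 reads in shRNA-UBC9, and was not tested. HNRNPA1 and YBX1 have near-identical processed copies elsewhere in the genome, and how reads shared with these were counted is not stated.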

How the data were processed

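The labels give 3 shRNA-NC and 3 shRNA-UBC9 samples of T24 cells. The authors made polyA libraries with a TruSeq RNA kit for Illumina sequencing and used the CLC Biomedical Genomics Workbench, with default settings, to map trimmed reads to GRCh38. They deposited RPKM for 58174 genes per sample. The gene annotation, the use of strand and the counting of multi-mapping reads are not given in the sources used here.

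No count model was used, because the deposited values are RPKM. Values were taken to log2(RPKM + 0.1), so fold changes of low genes are understated. Genes with at least 0.5 RPKM in at least 3 samples (12428) entered one limma fit (limma 3.58.1, R 4.3.3, with an intensity trend), with Benjamini-Hochberg adjustment over all of them. A gene with an adjusted p below 0.05 was called, and a DEG also had a log2 fold change above 1 or below -1. The script was tested on simulated data. Members under the filter were compared by a two-sided exact permutation test of the mean RPKM (scipy 1.17.1).

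Sample depth was recovered from the spacing of low RPKM values, with a tolerance of 0.003 reads. Of 2775 low genes, 587 (21.2%) fitted the exon lengths of GENCODE 44 on one set of totals, from which the depth of each sample was taken. Read numbers of a gene used, of the lengths that gave whole reads in all 6 samples, the 1 nearest to its GENCODE 44 exon length. The lengths that did so numbered 130 for HAS1, 57 for HYAL1, 37 for TNFAIP6 and 7 for CEMIP. Read numbers and 95% intervals rest on that depth and that choice of length, and the intervals cover counting error only. Gene positions and overlaps come from GENCODE 44 on GRCh38. Promoters come from RefSeq and were searched for 8 of the 9 members, not for HAS2. CEMIP2 and NAA80 were matched under the older symbols TMEM2 and NAT6.

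The members and the lists were chosen with earlier results of these data known. The genes named are the 9 members, the listed genes called, 14 genes described with a member (VCAN, PTX3, ITIH2, HMMR, EZR, MSN, ADAM10, ADAM17, MMP14, SPP1, UGDH, GFPT2, CEMIP2 and ESRP1), and the 5 genes nearest to CD44. Some genes that the rule covers are counted in their lists but not reported here. Genes named as not passing the test, at 0 or overlapping a member, and the genes of the closing observations, were added after their values were seen. Alternatives were pseudocounts of 0.01 and 1, no filter and a stricter filter of 1 RPKM in all 6 samples, quantile normalization, median scaling, no intensity trend, the replicate number as a block, and each sample left out in turn.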

Additional observations from a re-analysis of the deposited data

How the results depend on the processing

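Over the 14 alternatives, HAS2 kept its call, with a log2 fold change of 2.61 to 3.27 and a limma adjusted p of at most 0.00307, as did UGDH (-2.37 to -2.13). With single samples left out, 1 to 4 members were called, 1 to 3 higher and 0 to 1 lower (HAS3, without shRNA-UBC9 replicate 1), and only HAS2 without shRNA-NC replicate 1 or 3. For the listed genes these ranges were 17 to 26 called and 9 to 14 lower, with the smallest counts without shRNA-NC replicate 3 and, for the lower genes, also without shRNA-UBC9 replicate 2. Calls also fell over all 12428 tested genes, to 1633 to 2180 higher and 1401 to 2003 lower, in place of 2339 and 2237. Both were fewest without shRNA-NC replicate 3, so nothing is read from the smaller counts of members and listed genes. The number of members under the filter with separate groups was 1 to 2. With no filter, 2 members passed the DEG cutoff, since TNFAIP6 then joined HAS2. The control values of TNFAIP6 were then set almost wholly by the pseudocount of 0.1, so nothing is read from that call. ADAM10 turned to -0.007 under quantile normalization and -0.022 under median scaling, and ranged from -0.037 to 0.052 with samples left out. VCAN ranged from -0.74 to 0.15. Over all tested genes, 646 DEGs were higher and 335 lower, and with a pseudocount of 1 these were 391 and 161, which follows from its shrinkage of low values. The labels number the replicates alike in both groups, but the deviations of same-numbered samples correlated at -0.367, 0.073 and -0.17, and no shRNA-NC sample was nearest to its own number, so the numbers were not taken as pairs. With the replicate block, 9 listed genes were lower in place of 14, and 1749 genes in all were higher and 1625 lower, in place of 2339 and 2237. ADAM17, SRSF1, SRSF3, SRSF10 and YBX1 were the listed lower genes that lost the call under the block, PGM3 was a higher one that lost it (limma adjusted p = 0.0733), and CD44, HAS2 and HYAL3 kept theirs. Under alternatives other than a sample left out, 251 values of single genes kept their direction and their side of the threshold. Of the others, 21 lost the call and 2 reversed, both of ADAM10. With 1 sample left out, 182 were kept, 42 lost the call, 1 gained it and 3 reversed. Members under the filter have no call, and were counted as kept where the difference of means moved by less than the larger SD. Depth limits HAS1, HYAL1, CEMIP and TNFAIP6, for which a level under 3 reads per sample could not be told from 0. With 3 samples against 3, no exact permutation p falls below 0.1.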

Other observations

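The other glycosaminoglycans draw on the same UDP-glucuronic acid as hyaluronan, so 16 genes of chondroitin and heparan sulfate synthesis were listed after the values of the members had been seen. Of the 14 that passed the filter, 5 were higher in shRNA-UBC9, 1 was lower and 8 did not pass the test, with a median log2 fold change of 0.16. Over all tested genes, 18.8% were called higher and 18.0% lower, so nothing is read from the counts of this list. CHPF2, a chondroitin polymerising factor, was at 21.3, 18.3 and 19.7 RPKM in shRNA-NC and at 35.4, 41.3 and 41.4 RPKM in shRNA-UBC9 (log2 fold change 0.99, SE 0.10, limma adjusted p = 0.000302), and its relative CHPF rose by a log2 fold change of 0.71 (SE 0.09, limma adjusted p = 0.000875). CSGALNACT2, which starts chondroitin chains, CHSY1, which extends them, and B3GAT3, which completes the linker, rose by 0.60, 0.39 and 0.59 (limma adjusted p = 0.00243, 0.00795 and 0.00411). XYLT2, which starts the linker on the core protein, fell by a log2 fold change of 0.40 (limma adjusted p = 0.039), a call lost with no filter (0.0777), with no intensity trend (0.0546), under the replicate block (0.0702) and without shRNA-NC replicate 1 or 3 or shRNA-UBC9 replicate 1 or 2 (0.0906 to 0.123). EXT1 and EXT2, the heparan sulfate polymerases, did not pass the test.

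LGALS9, which encodes the CD44-binding lectin galectin-9, was under the filter and is named after its values were seen. It was listed at 0, 0.0859 and 0.0103 RPKM in shRNA-NC and at 0.461, 1.06 and 0.136 RPKM in shRNA-UBC9, higher in every knockdown sample (exact permutation p = 0.1, two-sided, the smallest that this design can give). Of the genes under the filter and above 0 in any sample, 9.66% lay higher in every shRNA-UBC9 sample. ANK3, another listed CD44 partner under the filter, went the other way. It was at 0.228, 0.134 and 0.342 RPKM in shRNA-NC and at 0.0845, 0.0875 and 0.105 RPKM in shRNA-UBC9. LGALS9 has near-identical copies in the genome, and how reads shared with them were counted is not stated.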
